A study of Aconitum japonicum with 4 samples.

Results

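The rootlet of *Aconitum japonicum*, the fibrous root of a perennial grown for its diterpenoid alkaloids, was compared with the tuberous roots, mother root (the main root) and daughter root (the new root that sprouts from it). The members were the transcripts with at least 10 fragments in mother root or daughter root, a rule meant to leave out RNA of other organisms found in rootlet alone. This left 46515 of 129760 assembled transcripts, or 35.8%, in 32076 Trinity genes. The organs, with leaf as the only one above ground, came from 5 greenhouse plants, untreated as far as the sources state, and 1 RNA-seq library per organ was deposited, with no mutant, transgene or agent in any of them. By the study's methods the RNA of an organ came from 1 biological replicate, not from a pool of the plants. With 1 library per organ no difference has a replicate check, so the results are ratios with their counting limits.

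Expression was given as FPKM, the number of fragments scaled to the length of the transcript and the total of the library. A member was called higher in rootlet where its FPKM was at least 2 times the mean of mother root and daughter root, and the 95% counting limits of its ratio to each of these libraries lay above 1. It was called lower where its FPKM was at most 0.5 times that mean and the limits of each ratio lay below 1. These limits, conditional binomial (Clopper-Pearson), describe the counting of fragments alone and leave out how plants vary. Since whole organs were ground, fewer cells of a type and less RNA per cell cannot be told apart.

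Rootlets anchor the plant and take up water and ions, while the tuberous roots store starch and are the source of the drug. The diterpenoid alkaloids of *Aconitum* derive from isopentenyl diphosphate, which plants make in the cytosol through the mevalonate (MVA) pathway and in plastids through the methylerythritol phosphate (MEP) pathway. Geranylgeranyl diphosphate is then cyclised to kaurene- and atisene-type skeletons, and cytochrome P450s, which insert oxygen, decorate them further.

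The expected counts summed to 4492151 fragments in rootlet against 11801534 for mother root and 12792781 for daughter root, and 4516426 for leaf, so mother root and daughter root had 2.63 and 2.85 times the depth of rootlet. The members held 97.6% of the fragments of rootlet, 98.4% of mother root, 98.9% of daughter root and 90.7% of leaf. For 1000 effective bases, 3 fragments made an FPKM of 0.668 in rootlet and 0.235 in daughter root. For leaf tissue in the root libraries, only 3 described transcripts had names that hold photosystem, ribulose bisphosphate or chlorophyll. They had 50 fragments in leaf against 2 for rootlet, 6 for mother root and 5 for daughter root. Their summed FPKM was 26.5 in leaf against 1.13, 1.29 and 1.07 in the same order. With 50 of 4516426 fragments in leaf itself, they cannot show whether a root library held some leaf tissue. No list of root markers was held, so the rootlet label was not checked.

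More members lay below the tuberous roots than above them, but among those past the counting limits the order was the other way round. The rootlet FPKM was below that of mother root and of daughter root for 21102 members, above each of them for 12355, and between or equal for 13058. Beyond the 95% limits of each ratio, 5157 members were below and 5375 above. The rule called 4037 members higher, which is 8.68% of the members, and 3222 lower, which is 6.93%, and left 39256 without a call. With at least 50 fragments in mother root or daughter root the order turned, with 2291 higher and 2631 lower calls, and with 10 fragments in each of them the counts were 3164 and 3222. With a fold of 4 in place of 2 it called 2036 higher (4.38%) and 1544 lower (3.32%). By the 2-fold difference alone 5161 members would be higher (11.1%) and 12736 lower (27.4%), so the counting limits removed mainly lower calls. The median log2 ratio, with 1 FPKM added to each value, was -0.24, and the middle 90% of the members lay between -1.99 and 1.62.

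**Figure D1:**
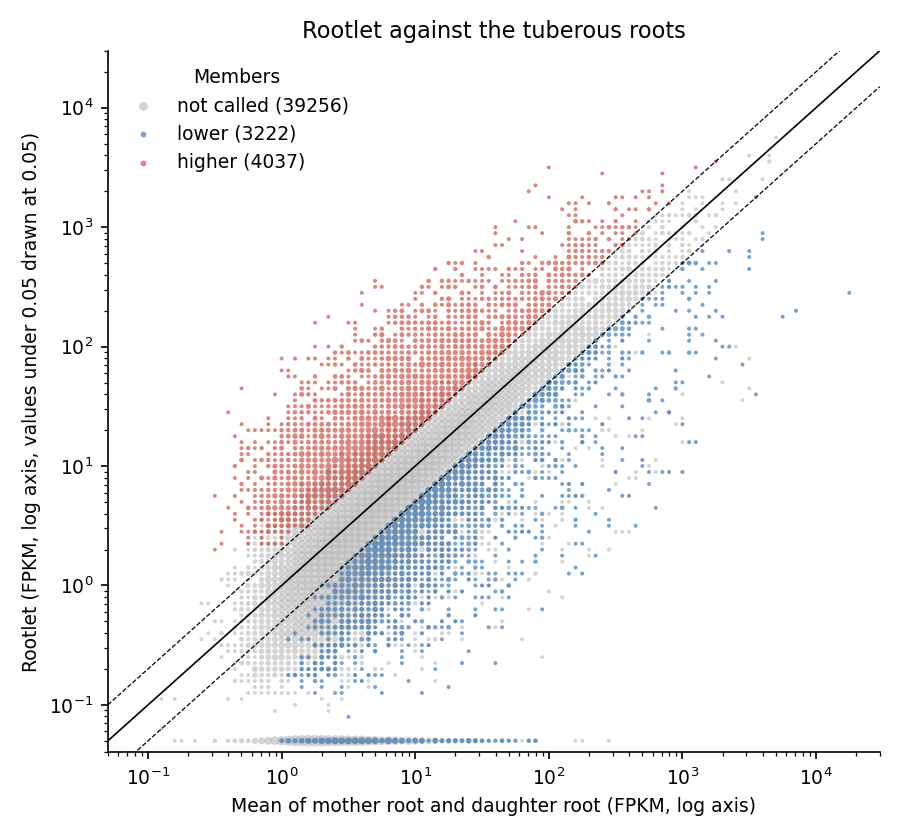
FPKM in rootlet (vertical, log axis) against the mean FPKM of mother root and daughter root (horizontal, log axis) for the 46515 members, binned, with larger points for more members. The solid line marks equal levels and the dashed lines the 2-fold difference. The 4037 members called higher and the 3222 called lower flank a broad band without a call, and the row of points at the bottom holds the members listed at 0 in rootlet.

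What could be called lower depended on depth. Of the 11920 members with 10 to 29 fragments in mother root and daughter root together, 0.403% were called lower and 6.51% higher. Among the 4574 members with 1000 fragments or more, 13.9% were called lower and 7.59% higher. In rootlet 2894 members had no fragment, of which 307 were called lower, and their median tuberous mean was 2.38 FPKM. The rule itself set an edge as well. The 1909 transcripts with 10 fragments in the deeper tuberous library, just inside, had a median rootlet FPKM of 1.06, and the 2306 with 9 fragments, just outside, one of 1.045. A member with under 10 fragments in either tuberous library could not be called lower. Even with no fragment in rootlet, the limits of the ratio to that library reach above 1. The absence of lower calls among members that passed through only one tuberous library was thus fixed by the rule. Higher calls were possible there, with 667 of the 6727 that passed through mother root alone and 206 of the 5044 through daughter root alone. Over all 46515 members 4037 (8.68%) were called higher. These groups were set by the tuberous counts, so their higher calls are a description.

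The called members carried a large part of each library, a description of what the rule chose. Those called higher held 28.0% of all rootlet fragments, 8.33% of those of mother root and 5.75% of those of daughter root. Those called lower held 4.35%, 14.6% and 25.8% of these libraries in the same order. Their median length was 905 bases for higher and 1089 for lower members, against 827 for all members. Leaf played no part in the rule, and its median FPKM was 5.95 over the members called higher, 6.54 over those called lower and 4.82 over all members. In leaf 11.4% of the members called higher, 6.24% of those called lower and 7.83% of those not called had no fragment. Over all 46515 members 3737 had none.

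A few transcripts without a description were among the most abundant of their direction. TR51009|c2_g1_i1, of 1828 bases, had the highest tuberous mean of all members called lower, at 15890 FPKM in mother root and 18051 in daughter root against 267.58 for rootlet and 101 for leaf. It took 2.67% of the fragments of mother root and 3.03% of those of daughter root, but 0.0449% of those of rootlet. The next was TR45464|c2_g6_i1, with 2320 FPKM in mother root against 12563.5 for daughter root, 196 for rootlet and 4.08 for leaf. In the other direction, TR52513|c4_g1_i3 reached 3253 FPKM in rootlet against 33.6 for mother root and 156 for daughter root, and no fragment for leaf. TR43379|c1_g2_i1 was at 3547 FPKM in rootlet against 875 for mother root and 2657 for daughter root, and its ratio of 2.01 to the mean just passed the fold, which it missed on the TPM scale at 1.99. No description of these 4 transcripts was held, so they are given by identifier only.

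The rootlet library resembled mother root more closely than daughter root. Over the members, Pearson's r of log2(FPKM + 1) was 0.852 between rootlet and mother root, 0.741 between rootlet and daughter root and 0.823 between mother root and daughter root. Spearman's rho followed the same order, at 0.817, 0.685 and 0.757. Rootlet and leaf had a Pearson's r of 0.625. These are values across transcripts, which are not replicates, and they share the lengths of the transcripts and the depth of each library. The median absolute difference was 0.52 on the log2 scale between rootlet and mother root and 0.66 between rootlet and daughter root.

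Where the tuberous roots themselves differed, rootlet stood mostly on the side of mother root. This was asked of the members at least 4-fold apart between mother root and daughter root with 95% limits that leave out 1, a choice in which the rootlet values had no part. Of the 3108 such members higher in daughter root, 83.3% had a rootlet level nearer to mother root on the log2(FPKM + 1) scale, with medians of 0.840 FPKM in rootlet against 0.660 for mother root and 6.64 for daughter root. Of the 3262 higher in mother root, 58.1% were nearer to mother root, with medians of 2.96 FPKM in rootlet against 4.73 for mother root and 0.610 for daughter root. On a scale from 0 at daughter root to 1 at mother root, the median position of rootlet was 1 in the first class and 0.639 in the second. A member with no fragment in rootlet and in mother root stands at exactly 1, and how many did was not counted. Many of these members passed the filter only through the tuberous root in which they were high, and the rootlet medians lie close to what 3 fragments make. With 10 fragments required in each tuberous root, 942 and 746 members were left, and 85.7% and 69.6% of them were nearer to mother root. Among members higher in mother root, 658 (20.2%) were called higher in rootlet and 28 (0.858%) lower. Among those higher in daughter root, 133 (4.28%) were called higher and 252 (8.11%) lower. Over all members 8.68% were called higher and 6.93% lower. A lower call needed 10 fragments in each tuberous root, which only 746 of the members higher in mother root had. Of those higher in daughter root, 942 had them. The filter thus capped the shares of lower calls in these classes, and they do not describe rootlet. The calls use the tuberous values too and are a description.

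**Figure D2:**
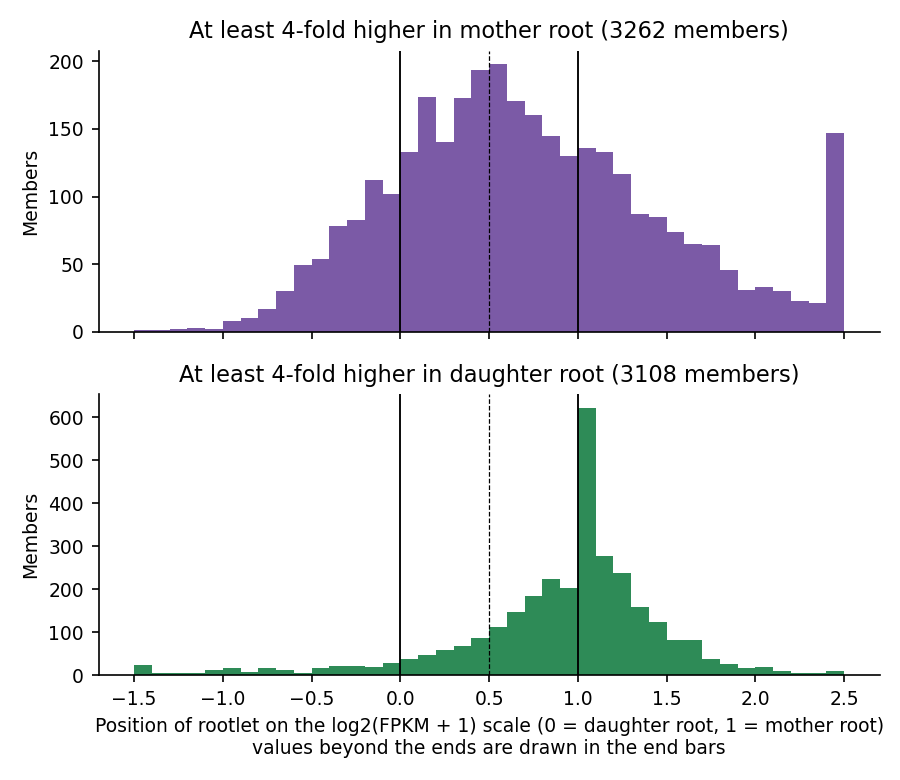
Number of members by the position of rootlet between daughter root (0) and mother root (1) on the log2(FPKM + 1) scale, for the 3262 members at least 4-fold higher in mother root (top) and the 3108 at least 4-fold higher in daughter root (bottom). The dashed line marks the midpoint. The lower panel peaks at mother root, with 83.3% of the members to the right of the midpoint, and the upper panel is broad, with 58.1% to the right. The peak bin of the lower panel, which starts at 1, holds 622 members. Any member with no fragment in rootlet and in mother root falls into it.

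Large shifts in the main transcript of a gene between rootlet and the tuberous roots were rare, and smaller ones were not counted. Of 4509 Trinity genes with several transcripts and at least 50 fragments in each root library, 6 had a transcript with at least 50% of the gene's FPKM in rootlet and at most 25% in mother root and in daughter root, and 10 had one with the opposite shares. In 1 gene, counted in each direction, one transcript held 75.2% of the rootlet FPKM but 20.1% and 21.9% of that of mother root and daughter root, and another held 10.5%, 65.6% and 64.4%. Reads of near-identical transcripts of a gene may be split between them by the estimation, so these shares are uncertain. Some rest on few fragments, such as TR54594|c0_g2_i7 with 3 in rootlet, none in mother root and 3 in daughter root.

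Descriptions of the best Blastx hit were held for 383 members, from 2 partial tables. Of these, 317 came from a table of transcripts with FPKM above 0 in all organs, so transcripts listed at 0 in rootlet are largely missing from it. Of the 383, 31 (8.09%) were called higher and 28 (7.31%) lower, near the 8.68% and 6.93% of all members, and their median log2 ratio was -0.34. Those at least 4-fold apart that reached 10 FPKM in rootlet or in the tuberous mean, and whose description names a function, numbered 9 higher and 7 lower.

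Of the 9 annotated transcripts that were higher, a transcription factor and a glutathione S-transferase had the largest ratios. TR889|c0_g1_i1, described as an AP2/ERF transcription factor, a family that acts in ethylene and stress responses, was at 94.98 FPKM in rootlet against 0.810 for mother root and 3.75 for daughter root, and 1.42 for leaf. Its level in rootlet was 41.7 times the tuberous mean, with limits of 14.8 and 46.6 for the ratio to daughter root, the nearer library. TR15514|c0_g1_i1, a glutathione S-transferase (GSTF2), was at 442.9 FPKM in rootlet against 67.9 for mother root and 11.5 for daughter root, and 5.1 for leaf. These enzymes attach glutathione to reactive compounds, and this one was 11.1 times the tuberous mean, with limits of 4.91 and 8.73 against mother root. Both were far higher in rootlet than in any other organ.

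The UDP-glycosyltransferase TR1378|c0_g1_i2, of a family that adds sugars to small molecules, was at 58.98 FPKM in rootlet against 12.6 for mother root and 0.640 for daughter root, and 12.85 for leaf, 8.92 times the tuberous mean. The LURP-one-related TR1371|c0_g1_i1 was at 145.88 FPKM in rootlet against 15.9 for mother root and 17.5 for daughter root, a ratio of 8.73. It was also high in leaf, at 110.2 FPKM, so the tuberous roots were the organs in which it was low. A cytochrome P450 reductase, TR17303|c0_g1_i2, which supplies electrons to P450s, had 38.65 FPKM in rootlet against 9.03 for mother root and 2.07 for daughter root, a ratio of 6.96. Its rootlet value rests on 26 fragments. Another transcript described in the same way, TR16478|c0_g2_i1, was lower in rootlet, at 6.27 FPKM against 22.1 in mother root and 15.6 in daughter root, and is named here after its values were seen.

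Phenylalanine ammonia-lyase, the entry enzyme of lignin and other phenylpropanoids, was represented by TR109|c0_g1_i1, with 35.3 FPKM in rootlet against 8.46 for mother root and 2.58 for daughter root, and no fragment for leaf. The ratio of 6.40 rests on 19 fragments in rootlet, with limits of 1.92 and 9.42 against mother root. TR15393|c0_g1_i1, described as dopamine beta-monooxygenase, had 79.9 FPKM in rootlet against 14.65 for mother root and 8.87 for daughter root, and 14.97 for leaf, a ratio of 6.80. The formamidase TR17937|c0_g1_i1 and the defensin TR15777|c0_g1_i1, a small antimicrobial peptide, were higher than in the tuberous roots but highest in leaf. Formamidase had 19.1 FPKM in rootlet against 4.47 for mother root and 2.06 for daughter root, and 57.1 for leaf. Defensin had 44.9 FPKM in rootlet against 18.6 for mother root and 1.47 for daughter root, and 1400 for leaf. In all 9 transcripts except AP2/ERF and LURP-one-related, mother root lay above daughter root.

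The 7 annotated transcripts that were lower included some of the most abundant of the tuberous roots. 1-aminocyclopropane-1-carboxylate oxidase, which makes ethylene, was represented by TR17273|c2_g1_i1, with 2223 FPKM in daughter root against 318 for mother root, 15.2 for rootlet and 1.43 for leaf. The rootlet level was 0.0120 times the tuberous mean, with limits of 0.0375 and 0.0601 against mother root. TR1414|c0_g1_i1, described as pEARLI 1, a proline-rich lipid-transfer-like protein known from Arabidopsis, was at 1224 FPKM in daughter root against 11.2 for mother root, 4.38 for rootlet and 0.4 for leaf. Here daughter root alone was high, and the upper limit of the ratio of rootlet to mother root was 0.740. Pathogenesis-related 1, TR17268|c0_g1_i1, a secreted protein of the defence response, had 345.8 FPKM in daughter root against 15.3 for mother root, 7.03 for rootlet and 136 for leaf.

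By contrast, 2 transcripts described as 3'-N-debenzoyl-2'-deoxytaxol N-benzoyltransferase, an acyltransferase known from taxol formation in yew, were high in each tuberous root. TR14943|c0_g1_i1 had 324 FPKM in mother root against 223.5 for daughter root, 6.33 for rootlet and 1.57 for leaf, and its rootlet level was 0.0231 times the tuberous mean. TR14943|c1_g2_i1 had 193 FPKM in mother root against 119 for daughter root, 4.31 for rootlet and 0.150 for leaf, a ratio of 0.0276. The rootlet values rest on 4 and 29 fragments. They share the TR number and the description but are separate Trinity genes, and whether reads are shared between them was not tested. Orcinol O-methyltransferase, TR810|c0_g1_i1, an enzyme of rose scent, had no fragment in rootlet or leaf, 42.7 FPKM in mother root and 123 in daughter root. Set against a floor of 3 fragments in the rootlet library, it was at least 11-fold lower than the tuberous mean. The cytochrome P450 TR12810|c0_g1_i1 was at 4.32 FPKM in rootlet on 3 fragments, 42.1 in mother root against 16.5 for daughter root and 14.3 for leaf.

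**Figure D3:**
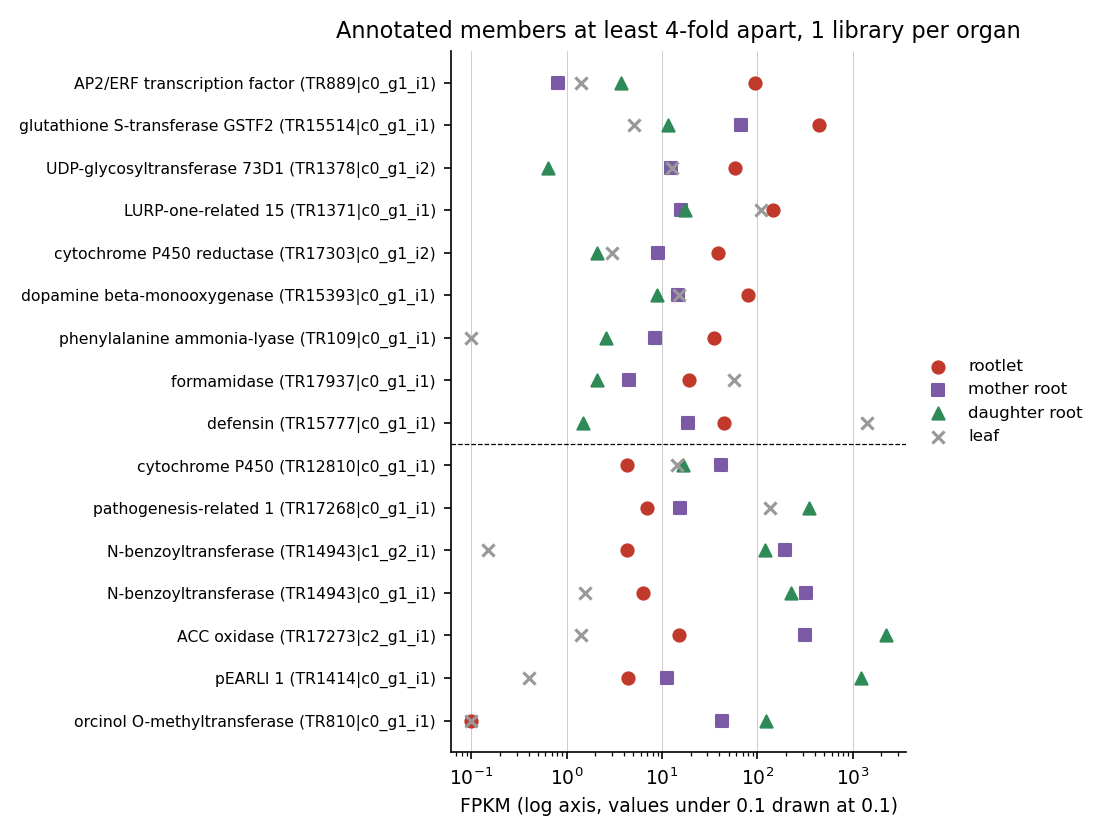
FPKM (log axis) in rootlet, mother root, daughter root and leaf, 1 library each, for the 9 annotated transcripts called higher (above the dashed line) and the 7 called lower (below it) by the 4-fold rule, ordered by the ratio of rootlet to the tuberous mean. ACC oxidase stands for 1-aminocyclopropane-1-carboxylate oxidase. Rootlet is the highest of the root libraries in each of the upper rows and the lowest in each of the lower rows.

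Among the lists made by words in the descriptions, ribosomal proteins had the most lower calls. Of the 14 members, 4 (28.6%) were called lower, against 6.93% of all members, and none higher, against 8.68%. All 14 had a log2 ratio below 0, and the median was -0.80 against -0.24 over all members. The 60S ribosomal protein L44, TR1199|c0_g1_i1, had 143.6 FPKM in rootlet against 325 for mother root and 311 for daughter root. The 40S protein S16, TR14593|c0_g1_i1, had 22.3 FPKM in rootlet against 48.0 for mother root and 80.3 for daughter root. L7A (TR13605|c0_g1_i1) and L36 (TR17202|c0_g1_i1) had ratios of 0.452 and 0.5. With median-of-ratios scaling, the ratio of L36 was 0.512 and the call was lost. The summed FPKM of the list was 1070 in rootlet against 1688 for mother root and 1692 for daughter root, and 481 for leaf.

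The lists for growth and protein folding had shares of lower calls near that of all members (6.93%). Of 16 heat shock proteins and chaperones 1 (6.25%) was lower, a TCP-1/cpn60 chaperonin (TR1261|c0_g1_i1), at 14.9 FPKM in rootlet against 42.35 for mother root and 67.4 for daughter root, and the list's median was -0.50. Of 14 transcripts of cell division and chromatin 1 (7.14%) was lower, a tubulin beta chain (TR17898|c0_g1_i1), with 18.2 FPKM in rootlet against 32.0 for mother root and 64.8 for daughter root, and the median was -0.43. No member of these lists was called higher.

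The wall and defence lists each had 8.33% of their members called in each direction, near the 8.68% higher and 6.93% lower of all members. Of 12 cell wall and lignin transcripts, phenylalanine ammonia-lyase was higher and a cellulose synthase (TR13828|c0_g1_i1) lower, at 32.5 FPKM in rootlet against 70.6 for mother root and 159 for daughter root. Of 12 defence transcripts, the defensin was higher and pathogenesis-related 1 lower. Of 17 protein kinases 2 (11.8%) were called higher and none lower. Mitogen-activated kinase 3 (TR10299|c0_g1_i1), a kinase of stress signalling, had 198 FPKM in rootlet against 113 for mother root and 44.6 for daughter root, and 40.2 for leaf. A G-type lectin receptor-like kinase (TR14832|c0_g1_i2) had 6.94 FPKM in rootlet against 1.44 for mother root and 0.33 for daughter root.

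For uptake and storage, functions by which these organs are often told apart, few members were described and little was called. Of 8 transcripts of uptake and membrane transport 1 (12.5%) was called lower, against 6.93% of all members. This was a purine permease (TR1100|c0_g1_i1), with no fragment in rootlet and 25 in each tuberous root, at least 3.04-fold below their mean. None of the 8 was called higher, against 8.68% of all members. None of 3 transcripts of starch and sucrose metabolism, 7 of storage, desiccation and dormancy, 2 of isoquinoline alkaloid enzymes and 7 mobile elements was called in either direction. These lists are too short to set beside the shares of all members. The median log2 ratios were -0.77 for starch and sucrose and -0.36 for storage. The lists hold a small part of the transcripts with these functions, so a missing call says little of the organ.

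The MVA and MEP lists had medians near the -0.24 of all members, and the median of the kaurene and atisene list lay above it. Their calls are set beside the 8.68% higher and 6.93% lower of all members. Of the 13 MVA members 1 (7.69%) was called higher and none lower, with a median log2 ratio of -0.22. Of the 18 MEP members 2 (11.1%) were called higher and 4 (22.2%) lower, with a median of -0.16, and by sums per Trinity gene the lower calls were 2. Of the 19 transcripts listed as enzymes of the kaurene and atisene route 15 were members, none was called, and the median was 0.10. These transcripts are those the study assigned to the pathway by annotation, and several are variants of 1 Trinity gene that share reads.

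In the MVA pathway, 3-hydroxy-3-methylglutaryl-CoA (HMG-CoA) reductase, the rate-limiting enzyme, had its most abundant member in TR50314|c2_g1_i5, with 65.8 FPKM in rootlet against 64.5 for mother root and 53.6 for daughter root, and 3.79 for leaf. For this transcript the 3 root libraries were thus close, with limits of 0.927 and 1.12 for the ratio to mother root. The other listed reductases, named here after their values were seen, were not called. TR50314|c2_g1_i1 had 41.8 FPKM in rootlet against 41.2 for mother root and 56.2 for daughter root. TR50314|c1_g1_i1 had 5.33 FPKM in rootlet against 4.06 for mother root and 33.3 for daughter root, a ratio of 0.285. Acetoacetyl-CoA thiolase, the first enzyme, was at 21.1 FPKM in rootlet against 21.7 for mother root and 27.4 for daughter root for TR49281|c2_g1_i2. The most abundant mevalonate kinase, TR50024|c0_g1_i2, had 7.15 FPKM in rootlet against 5.77 for mother root and 9.20 for daughter root. Phosphomevalonate kinase, TR52617|c1_g1_i4, and diphosphomevalonate decarboxylase, TR50920|c0_g1_i1, which complete the pathway, had ratios of 0.577 and 0.75. The only call was TR50259|c0_g1_i1, listed as HMG-CoA synthase but described as HMG-CoA lyase, which splits rather than makes HMG-CoA. It had 44.6 FPKM in rootlet against 25.6 for mother root and 8.88 for daughter root, and 35.5 for leaf, 2.59 times the tuberous mean. The transcript described as the synthase, TR44745|c0_g1_i1, is named here after its values were seen and was not called. Its FPKM was 15.6 in rootlet against 9.46 for mother root and 28.5 for daughter root, a ratio of 0.822.

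In the MEP pathway the calls were mostly among the transcripts of deoxyxylulose phosphate synthase (DXS), the first enzyme, and these were low. TR11997|c0_g1_i1 was higher, with 11.8 FPKM in rootlet against 5.36 for mother root and 0.210 for daughter root. TR44886|c0_g1_i2 was higher as well, with 7.75 FPKM in rootlet against 4.68 for mother root and 3 for daughter root, and its ratio of 2.02 became 1.98 on the TPM scale, which ended the call. DXS transcripts called lower were TR54749|c2_g1_i1, at 3.23 FPKM in rootlet against 5.74 for mother root and 10.8 for daughter root, and TR54754|c2_g1_i2, at 0.310 FPKM in rootlet on 3 fragments, 3.67 in mother root against 2.02 for daughter root and 86.6 for leaf. The most abundant DXS of the roots, TR46556|c4_g1_i1, was level, with 14.4 FPKM in rootlet against 14.2 for mother root and 14.6 for daughter root, and 213 for leaf. DXS transcripts thus went both ways around an even main form.

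Further down the MEP pathway, ISPD (TR39144|c0_g1_i1), which attaches the cytidyl group, was lower, with 5.18 FPKM in rootlet against 9.41 for mother root and 18.65 for daughter root. Its variant TR39144|c0_g1_i2 was at 7.04, 10.6 and 19.3 FPKM in the same order and was not called. A transcript listed as isopentenyl diphosphate isomerase but described as a nudix hydrolase, TR54138|c0_g1_i2, was lower at 1.72, 3.18 and 4.93 FPKM. By sums per Trinity gene neither this call nor that of the DXS transcript TR54749|c2_g1_i1 was made, at ratios of 0.5 and 0.591. The main isomerase TR42449|c0_g2_i1, which balances the C5 units of both pathways, was below each tuberous root but inside the 2-fold limit, at 96.9 FPKM in rootlet against 185 for mother root and 167 for daughter root, and 224 for leaf, with limits of 0.528 and 0.640 against daughter root. The reductoisomerase DXR (TR43149|c0_g1_i1), the second enzyme, had the highest ratio of the single-transcript steps at 1.55, with 42.6 FPKM in rootlet against 36.4 for mother root and 18.4 for daughter root. The remaining steps had ratios of 1.31 for ISPE (TR41484|c0_g1_i1), 0.936 for ISPF (TR40389|c0_g1_i1), 0.802 for ISPG (TR52997|c1_g1_i2) and 0.774 for ISPH (TR49449|c3_g1_i1). None of these was called.

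The most abundant kaurene synthase and kaurene oxidase, which build and first oxidise the skeleton, lay between the tuberous roots, and the less abundant forms differed among themselves. Kaurene synthase TR44184|c3_g1_i2 had 206.51 FPKM in rootlet against 350 for mother root and 34.15 for daughter root, and 15.2 for leaf. Kaurene oxidase TR40067|c2_g1_i1 had 211 FPKM in rootlet against 320 for mother root and 83.4 for daughter root, and 21.7 for leaf. Each was thus below mother root and well above daughter root, with limits of 0.565 and 0.616 for the synthase and of 0.622 and 0.695 for the oxidase against mother root. The other kaurene synthase, TR52848|c0_g1_i1, named here after its values were seen, stood at the level of daughter root, with 11.55 FPKM in rootlet against 30.9 for mother root and 9.85 for daughter root, and limits of 0.954 and 1.43 for the ratio to daughter root. Of the 4 members of the list at least 4-fold higher in mother root than in daughter root, 4 had a rootlet level nearer to mother root. They were the abundant synthase TR44184|c3_g1_i2 and the oxidases TR27131|c0_g1_i1, TR27131|c0_g1_i2 and TR70877|c0_g1_i1. The 2 that were higher in daughter root, TR53909|c0_g1_i2 and TR53909|c0_g1_i7, were nearer to daughter root. TR70877|c0_g1_i1 had 80.5 FPKM in rootlet against 77.15 for mother root and 6.14 for daughter root, and 68.6 for leaf. Over the 6 kaurene oxidase members the ratio to the tuberous mean ran from 1.04 to 1.94, inside the 2-fold limit. It was 0.567 and 1.08 for the 2 kaurene synthases and 1.23 and 1.76 for the 2 copalyl diphosphate synthase members. Over the 5 geranylgeranyl diphosphate synthase members it ran from 0.331 to 1.03. Among the root libraries, geranylgeranyl diphosphate synthase, which supplies the substrate, peaked at 16.3 FPKM in daughter root for TR49767|c0_g1_i4. This transcript had 11.4 FPKM in rootlet, 9.64 in mother root and 15.2 in leaf. TR47741|c1_g1_i2, TR47741|c1_g1_i1 and TR51056|c0_g1_i1 were highest in leaf, at 29.97, 28.4 and 27.98 FPKM, and TR49767|c0_g1_i1 in daughter root, at 15.95. Copalyl diphosphate synthase, which makes the first cyclisation, was low everywhere, at 2.44 FPKM in rootlet against 1.73 for mother root and 1.05 for daughter root for TR54020|c0_g1_i6.

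**Figure D4:**
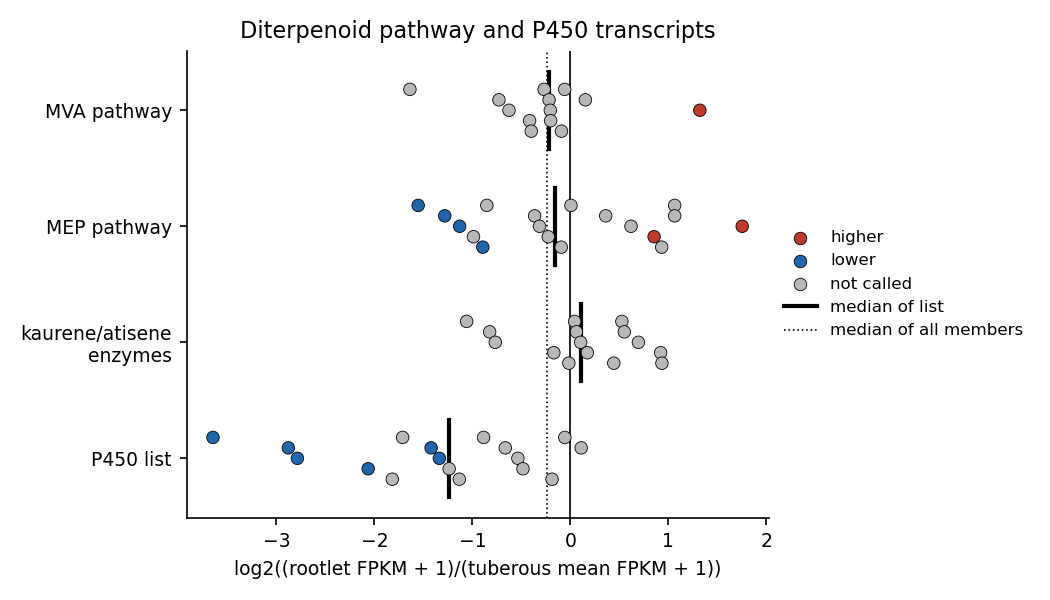
log2 ratio of rootlet to the mean of mother root and daughter root, with 1 FPKM added to each, for the members of the MVA pathway (13), the MEP pathway (18), the kaurene and atisene enzymes (15) and the P450 list (17). Each point is a transcript coloured by its call, the thick bars are the list medians of -0.22, -0.16, 0.10 and -1.24, and the dotted line is the median of all members at -0.24.

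The 17 P450s that the study placed in its diterpenoid alkaloid cluster were the pathway list that fell furthest below the tuberous roots. None was called higher and 6 (35.3%) were called lower, against 6.93% of all members, and the median log2 ratio was -1.24. The study chose these transcripts by their profile over the same libraries, so the direction is not independent evidence. All 17 had a lower FPKM in rootlet than in mother root, 15 of them beyond the 95% limits, and 13 had a lower FPKM than in daughter root, 6 of them beyond the limits. With sums per Trinity gene the median was -0.71.

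Of the 17 transcripts, 12 hold the cysteine heme-binding signature of P450s, the loop that binds the heme iron, with 30 coding bases on each side. For 5 of the transcripts called lower and for the 2 with the highest rootlet level among those not called, the 90 coding bases around it are shown to set forms called lower beside forms without a call. They are read 5′ to 3′ from the transcript sequences listed by the study, and the capitals mark the 10 codons of the signature.
TR47105|c2_g1_i1: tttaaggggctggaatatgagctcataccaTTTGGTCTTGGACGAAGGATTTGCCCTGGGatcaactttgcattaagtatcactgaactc
TR54550|c2_g1_i4: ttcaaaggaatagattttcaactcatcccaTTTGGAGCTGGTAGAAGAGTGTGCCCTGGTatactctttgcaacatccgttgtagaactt
TR48287|c0_g1_i1: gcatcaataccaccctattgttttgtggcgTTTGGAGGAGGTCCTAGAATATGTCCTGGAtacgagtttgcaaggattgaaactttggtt
TR48278|c4_g1_i6: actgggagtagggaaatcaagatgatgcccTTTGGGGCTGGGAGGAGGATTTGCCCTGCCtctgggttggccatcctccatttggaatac
TR39654|c0_g2_i5: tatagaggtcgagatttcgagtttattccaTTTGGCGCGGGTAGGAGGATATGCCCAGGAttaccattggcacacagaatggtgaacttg
TR40787|c1_g1_i1: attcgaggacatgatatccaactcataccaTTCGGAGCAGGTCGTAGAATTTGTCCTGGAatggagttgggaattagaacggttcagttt
TR52743|c4_g3_i1: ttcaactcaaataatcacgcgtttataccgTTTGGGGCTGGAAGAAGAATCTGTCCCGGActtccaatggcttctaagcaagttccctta
Base for base, these stretches were between 37.8% (TR48278|c4_g1_i6 and TR48287|c0_g1_i1) and 63.3% identical (TR47105|c2_g1_i1 and TR54550|c2_g1_i4).

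The lowest ratio of the list was that of TR47105|c2_g1_i1, with 26.4 FPKM in mother root against 7.69 for daughter root, 0.440 for rootlet on 1 fragment and none in leaf, 0.0258 times the tuberous mean and an upper limit of 0.333 against daughter root. TR54550|c2_g1_i4, whose shown stretch was the most similar to it, had 77.9 FPKM in mother root against 30.6 for daughter root, 7.01 for rootlet and 2.70 for leaf. Its variant TR54550|c2_g1_i6 had 34.1, 22.6, 2.99 and 1.37 FPKM in the same order. In each of these forms rootlet and leaf lay below both tuberous roots.

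TR48287|c0_g1_i1, the most abundant of the list in mother root at 250 FPKM, had 81.8 in daughter root against 38.95 for rootlet and 20.3 for leaf, and its rootlet level was 0.235 times the tuberous mean. TR39654|c0_g2_i5 had 66.6 FPKM in mother root against 31.7 for daughter root and 17.7 for rootlet, a ratio of 0.361. TR48278|c4_g1_i6 had 20.2 FPKM in mother root against 13.4 for daughter root, 6.05 for rootlet and 8.02 for leaf. Its ratio was 0.360, but 0.789 for the sum over its Trinity gene, so this call depends on how reads are split between variants. By contrast, TR52743|c4_g3_i1 had the highest rootlet level of the list, with 137.1 FPKM, against 173 in mother root and 112 in daughter root, a ratio of 0.961. TR40787|c1_g1_i1 was at 19.2 FPKM in rootlet against 38.0 for mother root and 16.6 for daughter root. The P450s of the list thus ranged from near the tuberous level to 0.0258 of it.

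**Figure D5:**
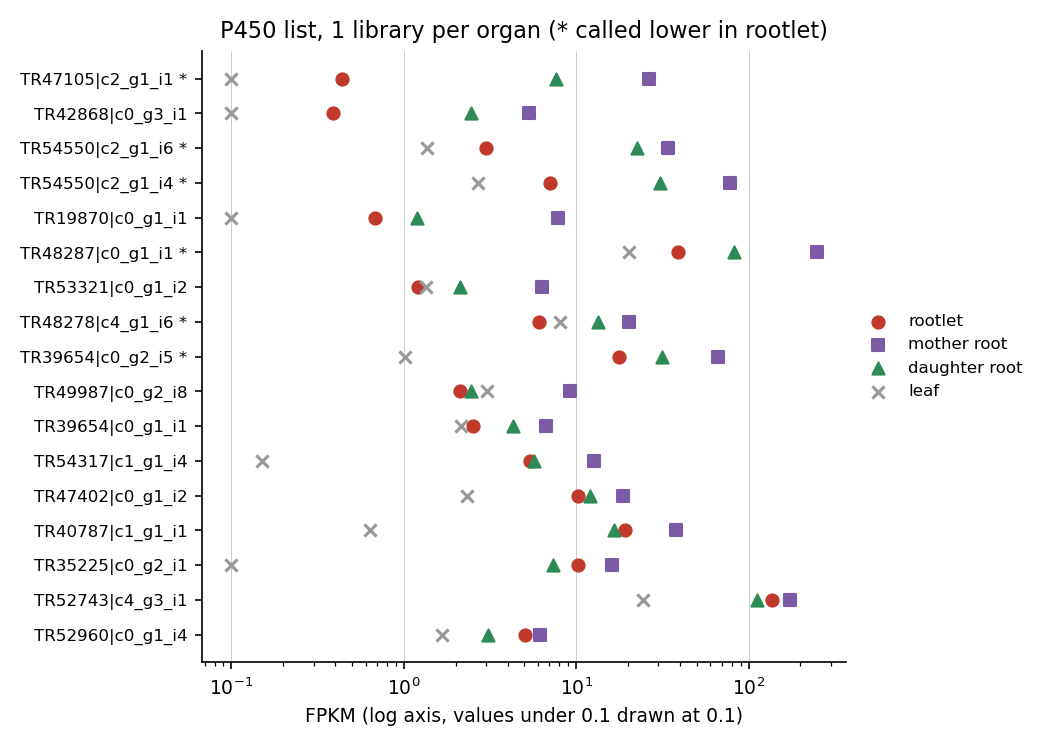
FPKM (log axis) of the 17 P450 transcripts in rootlet, mother root, daughter root and leaf, 1 library each, ordered by the ratio of rootlet to the tuberous mean from the highest (bottom) to the lowest (top). Asterisks mark the 6 called lower. Mother root is the highest library in every row, and rootlet moves from beside mother root at the bottom to far below daughter root at the top.

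Of the 4 members with cytochrome P450 in their description, other than those 17, 2 were called higher, 1 lower and the fourth was not called, too few to set beside the 8.68% and 6.93% of all members. TR10271|c0_g1_i1 had 779 FPKM in rootlet against 329 for mother root and 145 for daughter root, and 1.98 for leaf, 3.29 times the tuberous mean, with limits of 2.06 and 2.72 against mother root. TR10121|c0_g1_i1 had 108 FPKM in rootlet against 97.2 for mother root and 9.79 for daughter root, and 1.69 for leaf, and its ratio of 2.02 became 1.98 on the TPM scale, which ended the call. TR12810|c0_g1_i1, given above, was the 1 lower member. The level of the first 2 in leaf was close to 0, so they were root transcripts in these libraries.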

How the data were processed

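RNA of leaf, mother root, daughter root and rootlet was sequenced with 1 strand-specific library each. The authors trimmed the reads with Trimmomatic, assembled all organs together with Trinity, removed redundancy with CD-HIT-EST, aligned with Bowtie 2 and quantified with RSEM. The deposited tables give per transcript the expected count, which was whole throughout, the FPKM and the TPM as the authors' RSEM run wrote them. FPKM was the measure of expression and the expected counts gave the counting limits. Positions are not given, as there was no genome.

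The 3 root tables were joined on the transcript identifier with Python 3.11.15, pandas 2.3.3, numpy 2.4.6 and scipy 1.17.1, and drawn with matplotlib 3.10.9. Descriptions and P450 sequences, never values, came from the study's supplementary tables, 2 of them held in part. Transcripts were named by a rule: the called members and the most abundant member per enzyme of the pathway and P450 lists, annotated members past 4-fold with at least 10 FPKM, up to 4 called members per function list and direction, and the 2 most abundant called members per direction. The members and lists were chosen with earlier results of these data known. No test between organs was made, since each organ is 1 library. Alternatives were TPM, median-of-ratios factors over 41034 transcripts (1.08 for mother root, 0.937 for daughter root, 0.975 for rootlet), other filters, folds, limits, references and pseudocounts, equal depth in 20 draws (seed 1), and sums per Trinity gene. Metabolites, ontology terms and other species were not analysed here.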

Additional observations from a re-analysis of the deposited data

Results flagged for a closer look

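Rootlet held RNA outside the comparison. With at least 10 fragments in rootlet and under 10 in mother root and in daughter root, 1602 transcripts were left out by the rule, and they took 36746 fragments, or 0.818% of the library. They were singled out because they give a signal in transcripts that no comparison above uses. Of these, 412 had no fragment in either tuberous root, and 373 of the 412 had none in leaf. The organism of the best Blastx hit was held for 17 of the 1602, with 9 fungi, 3 animals and 5 plants, and for 66 members, with 65 plants and 1 animal. Whether these transcripts come from the plant was not tested.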

How the results depend on the processing

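No paired analysis was possible because each organ has 1 library. The sign of the median and the side to which most members leaned kept their direction under all alternatives run, but which direction had more calls did not. The 4037 higher calls became 2291 with at least 50 fragments in mother root or daughter root, 9233 with no filter on fragments, 2036 at 4-fold and 6870 against daughter root alone. The 3222 lower calls became 1544 at 4-fold, 1626 with the stricter counting limits, 12736 by fold alone, 5489 against mother root alone and 7431 against daughter root alone. The higher calls thus outnumbered the lower ones in the main rule but not with 50 fragments, with 10 in each tuberous root (3164 and 3222), by fold alone or against 1 tuberous root. The median log2 ratio of -0.24 was -0.21 with median-of-ratios factors, -0.19 with 50 fragments, -0.20 with 10 fragments in each tuberous root, -0.33 with no filter, -0.27 with sums per Trinity gene, -0.23 at equal depth, -0.30 and -0.081 with pseudocounts of 0.1 and 10, and -0.12 against daughter root alone. The share nearer to mother root among members higher there was 60.6%, 68.8%, 69.6%, 55.2% and 62.6% with median-of-ratios factors, 50 fragments, 10 in each tuberous root, no filter and equal depth. Among those higher in daughter root it was 86.5%, 85.7% and 80.5% with 50 fragments, 10 in each and no filter, and 81.2% for a 2-fold difference. The cause of these shifts was not tested. Of 378 ratios of single transcripts under other scalings or gene sums, 362 kept their call, 11 lost it, 5 gained one and 0 reversed. Rootlet has the smallest library. With mother root and daughter root drawn down to its depth, 3703 members were called higher and 2629 lower. What a deeper rootlet library would change was not tested.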

Other observations

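Of the annotated members called outside the naming rule, 6 are given here, chosen after their values were seen. Methionine synthase TR15299|c0_g1_i1 had 623 FPKM in rootlet against 264 for mother root and 70.5 for daughter root, and 34.85 for leaf, 3.73 times the tuberous mean. GDP-L-galactose phosphorylase TR16482|c0_g1_i1, an enzyme of ascorbate synthesis, had 84.3 FPKM in rootlet against 29.3 for mother root and 15.9 for daughter root, and 87.1 for leaf. UDP-glucose 4-epimerase TR11942|c0_g1_i1, which interconverts UDP-glucose and UDP-galactose for wall polymers, had 57.2 FPKM in rootlet against 19.5 for mother root and 11.3 for daughter root. A cysteine protease, TR14977|c0_g1_i1, had 486 FPKM in rootlet against 133 for mother root and 120 for daughter root. In the other direction, an acyl-CoA oxidase of fatty acid breakdown, TR17482|c0_g1_i1, had 60.8 FPKM in rootlet against 127 for mother root and 196 for daughter root. A ferredoxin-family transcript, TR14207|c0_g1_i1, had 4.83 FPKM in rootlet against 10.8 for mother root and 17.1 for daughter root, and 125 for leaf.

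Of 8575 Trinity genes with several members, 17 had a member called higher in rootlet and another called lower. No value shows whether these are splice forms or copies that the assembly joined.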
